A study of Neurospora crassa with 30 samples.

Results

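The expression of 7 genes of the circadian clock and the light response of *Neurospora crassa* was followed over 10 carbon sources. The genes were chosen by name with earlier results of these data known, although the rule itself uses no measured value. The members are *frq* (NCU02265), *wc-1* (NCU02356), *wc-2* (NCU00902), *vvd* (NCU03967), *frh* (NCU03363), *csp-1* (NCU02713) and NCU04785. They are 7 of the 9758 genes counted, and all 7 were among the 8501 genes with enough reads to be tested. NCU04785 had been listed as *fwd-1*, but RefSeq (assembly NC12) gives that symbol to NCU04540 and no symbol to NCU04785. NCU04785 is therefore called by its identifier, no role is given to it, and NCU04540 is described as *fwd-1* beside the 7 members.

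The samples were mycelia of the WT strain FGSC 2489 in Vogel's minimal medium. All cultures grew for 16 h on 2% sucrose, were washed, and were moved for 4 h to 1 of 10 carbon sources at 25 °C with shaking. The sources were the polymers avicel (microcrystalline cellulose) and xyloglucan, the glucose disaccharides cellobiose, maltose and trehalose, the monosaccharides fructose, mannose, sorbose and xylose, and the polyol glycerol. The 8 soluble sources were given at 2 mM, and the polymers at 1% (w/v) by the study's methods, although the design text states 2% for insoluble sources. Each source had 3 replicates, giving 30 samples. All cultures were kept in constant light and harvested at a single time, so the values are levels in the light and no rhythm was measured. No culture on glucose, on sucrose or without carbon was analysed here, so each source was set against the mean of the others. Between 13018483 and 21925749 reads fell on genes in each library (median 15901743.5). The cultures were bulk mycelia, in which fewer cells of a type and less RNA per cell cannot be told apart.

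In the *N. crassa* clock, the White Collar proteins WC-1 and WC-2 form a complex that switches on *frq*, and the FRQ protein, held in a complex with the RNA helicase FRH, turns that complex down. WC-1 is also the blue-light photoreceptor, so the same complex switches on light-induced genes, and VVD, a small photoreceptor whose own gene is light-induced, damps that response during prolonged light. CSP-1 is a transcription repressor under control of the clock, known for linking glucose to the clock and to lipid metabolism, and FWD-1 is the F-box protein that brings phosphorylated FRQ to degradation.

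By level, *vvd* stood far above the other members. Its mean over the 30 samples was 701 CPM per kb (counts scaled to the size of the library after TMM normalization, divided by the length of the gene span in kb), higher than 99.1% of the tested genes. The mean level of *frq* was 59.4 CPM per kb, of *wc-2* 39 CPM per kb and of *csp-1* 35.9 CPM per kb, above 83.1%, 74.7% and 72.8% of the tested genes. The remaining members were expressed below the middle of the tested genes, with *wc-1* at 12, *frh* at 10.1 and NCU04785 at 2.34 CPM per kb. NCU04785 was read 41 to 235 times per library, against 272 times or more for each of the other 6 members.

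**Figure D1:**
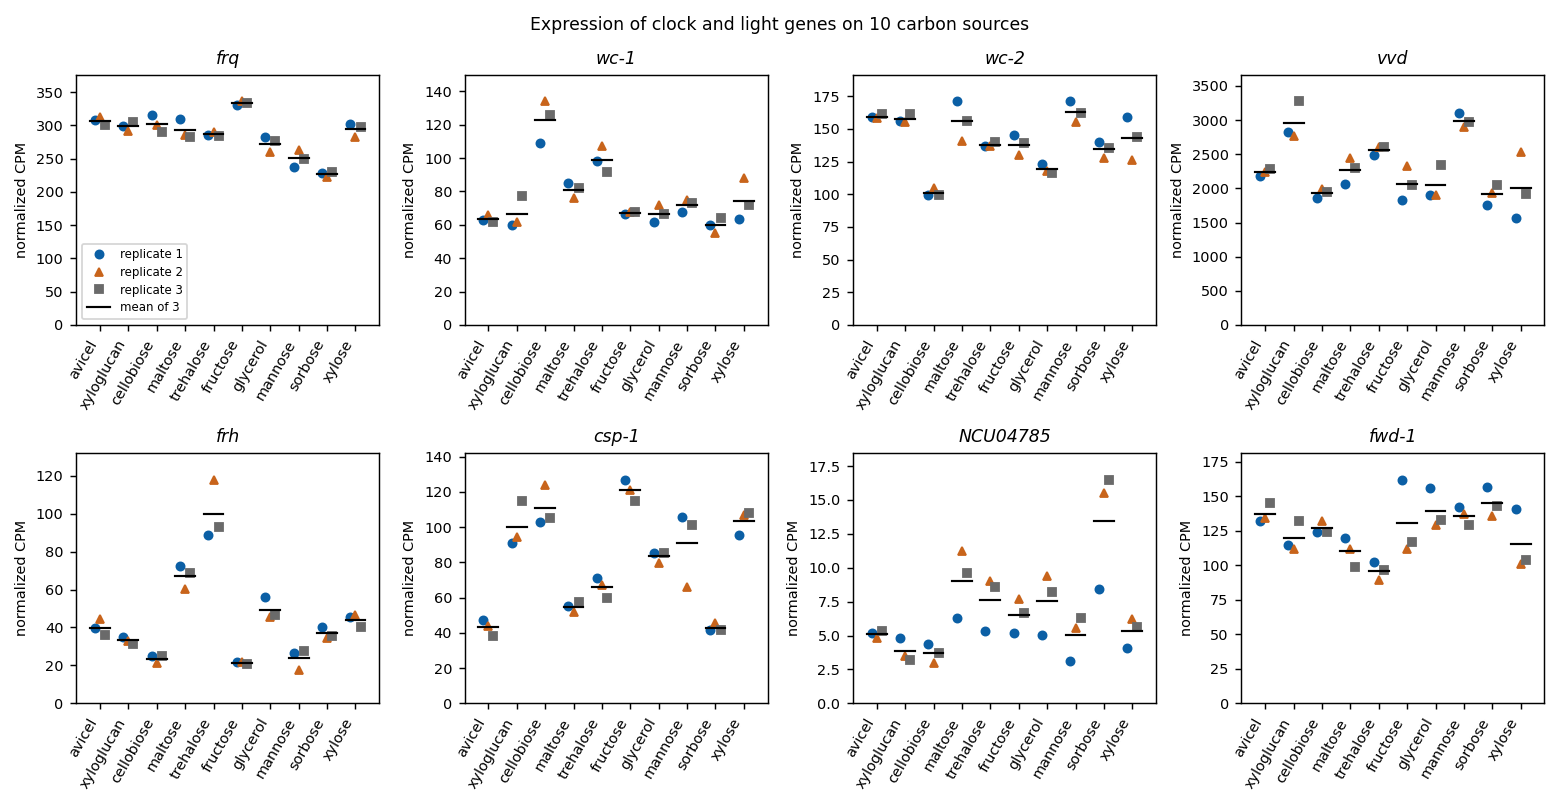
Normalized CPM (y axis, from 0) of the 7 members and *fwd-1* on 10 carbon sources (x axis), with 1 point per sample, marked by replicate, and a bar at the mean of 3. The points of *frq* stay between 223 and 336 CPM, while those of *frh* run between 17.4 and 118 CPM, highest on trehalose.

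Every member varied over the 10 carbon sources, which was also the rule for the genome: 7 of 7 members had an adjusted p under 0.01 for a difference among sources (edgeR quasi-likelihood F test, Benjamini-Hochberg over all tested genes), as did 93.1% of the tested genes. How far they varied differed. The ratio of the highest to the lowest carbon-source mean was 1.47 for *frq*, 1.56 for *vvd*, 1.6 for *wc-2*, 2.05 for *wc-1*, 2.82 for *csp-1*, 3.64 for NCU04785 and 4.69 for *frh*. For *frq*, 8.39% of the tested genes had a smaller ratio, and for *frh* 78.1% did. The median ratio was 2.05 over the 7 members and 2.51 over all tested genes. Ranked by the F value of this test, *frh* was gene 585 of 8501 (F = 56.8, adjusted p = 7.8e-13, edgeR) and *csp-1* gene 1470 (F = 34.9, adjusted p = 7e-11). At the other end were *vvd* (F = 6.61, adjusted p = 0.00013) and NCU04785 (F = 8.16, adjusted p = 2.7e-05).

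When each source was set against the mean of the other 9 (the mean of their log2 levels), 30 of the 70 member tests passed an adjusted p under 0.01, 16 of them higher and 14 lower, where 41.7% of all tests of all genes passed, 21.6% higher and 20.1% lower. Past the study's thresholds of over 2-fold and adjusted p under 0.01 were 2 of the 70 member tests, where the share for all genes was 10.2%: *frh* on trehalose and NCU04785 on sorbose. By source, 5 of 7 members passed on cellobiose (57.5% of all genes), 4 each on mannose (52%), xyloglucan (45.7%) and sorbose (34.6%), and 3 each on avicel (46.6%) and fructose (39.9%). On trehalose (56.9%), maltose (38.2%) and glycerol (27.2%) 2 members each passed, and on xylose (18.1%) 1 did. The gene with most differing sources was *csp-1* with 7 of 10, followed by *frh* with 6, *wc-2* with 5, *wc-1* with 4, *frq* and NCU04785 with 3 each and *vvd* with 2. P-values set each difference against the spread between replicate cultures, estimated for each gene over all sources together and not for each source.

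**Figure D2:**
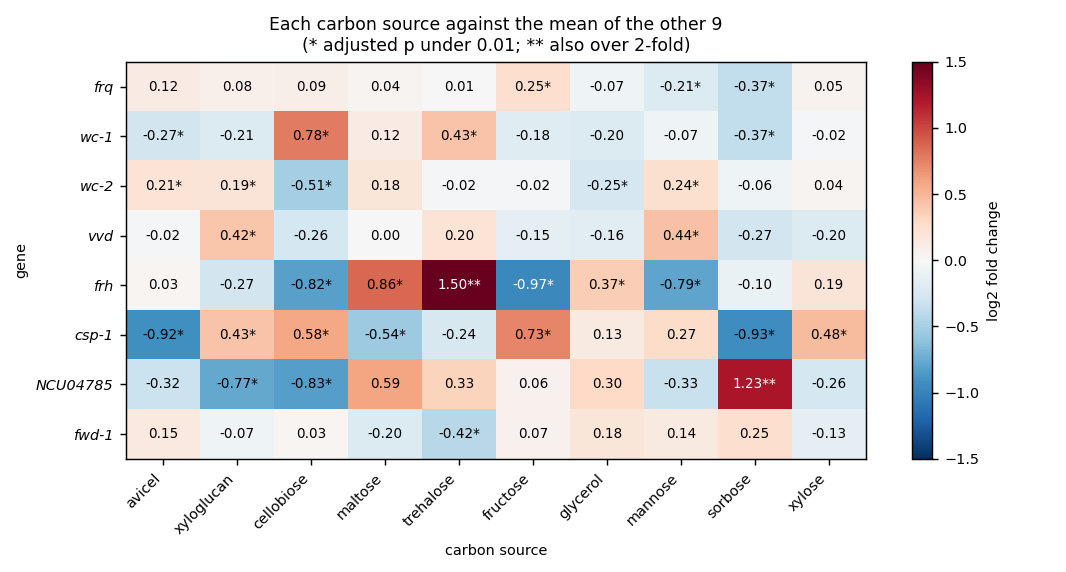
Log2 fold change of each carbon source (columns) against the mean of the other 9, for the 7 members and *fwd-1* (rows), with red for higher and blue for lower. The 2 cells marked with a double star are *frh* on trehalose (1.50) and NCU04785 on sorbose (1.23).

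The positive arm moved in opposite directions on cellobiose. The gene of the photoreceptor WC-1 had 109, 134 and 126 CPM in the 3 cellobiose cultures, and its log2 fold change against the other 9 sources was 0.78 (SE 0.07, adjusted p = 3.3e-09, edgeR). All 3 values lay above every other sample of the series. On trehalose, *wc-1* had 98.2, 107 and 91.8 CPM and was also higher (log2 fold change 0.43, SE 0.08, adjusted p = 2.6e-05), and on maltose it had 84.9, 76.1 and 82.1 CPM, which did not pass the test. The lowest *wc-1* levels were on sorbose, with 59.7, 55.4 and 64.3 CPM (log2 fold change -0.37, SE 0.08, adjusted p = 0.00076), and on avicel, with 63.2, 66 and 61.5 CPM (-0.27, SE 0.08, adjusted p = 0.0063). These 2 lower calls were small. The sorbose call was lost without sorbose replicate 2 (-0.32, adjusted p = 0.015, edgeR). The avicel call was lost without avicel replicate 1 (-0.27, adjusted p = 0.031), avicel replicate 2 (-0.30, adjusted p = 0.016), avicel replicate 3 (-0.25, adjusted p = 0.044) or fructose replicate 1 (-0.26, adjusted p = 0.011).

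The gene of WC-2, the partner that holds WC-1 in the complex, had 99.4, 105 and 99.4 CPM on cellobiose. These 3 values lay below every other sample, and the log2 fold change was -0.51 (SE 0.06, adjusted p = 9.6e-08, edgeR). The next lowest was glycerol, with 123, 118 and 116 CPM (-0.25, SE 0.06, adjusted p = 0.0014). Above the others were mannose with 171, 155 and 162 CPM (0.24, SE 0.06, adjusted p = 0.0006), avicel with 159, 158 and 161 CPM (0.21, SE 0.06, adjusted p = 0.0027) and xyloglucan with 156, 155 and 161 CPM (0.19, SE 0.06, adjusted p = 0.0058). Apart from cellobiose, each of these calls of *wc-2* was lost when single libraries were left out. For glycerol these were glycerol replicate 2 (-0.25, adjusted p = 0.012) and glycerol replicate 3 (-0.23, adjusted p = 0.018), and for mannose it was mannose replicate 1 (0.21, adjusted p = 0.013). For avicel, leaving out replicate 1 gave 0.21 (adjusted p = 0.014), replicate 2 gave 0.22 (adjusted p = 0.012) and replicate 3 gave 0.20 (adjusted p = 0.02). For xyloglucan, leaving out its replicate 1 gave 0.20 (adjusted p = 0.022), replicate 2 gave 0.20 (adjusted p = 0.019), replicate 3 gave 0.17 (adjusted p = 0.043), and leaving out fructose replicate 1 gave 0.18 (adjusted p = 0.011). The xyloglucan call was also lost with no filter on low counts (0.18, adjusted p = 0.012) and with the reads outside genes as covariate (0.15, adjusted p = 0.017).

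Because *wc-1* was high where *wc-2* was low, the ratio of the 2 transcripts, both per kb, set cellobiose apart. The ratio of *wc-1* to *wc-2* was 0.611, 0.711 and 0.706 in the cellobiose cultures, and lay between 0.213 and 0.437 in the 27 samples on the other sources (median 0.27). The nearest source was trehalose, with 0.401, 0.437 and 0.366. The ratio was formed after the levels had been seen and carries no test. Over the 10 source means, the log2 levels of *wc-1* and *wc-2* had a Pearson r of -0.56 (Spearman rho -0.25), which turned to 0.32 without cellobiose and trehalose, so the negative relation rested on those sources.

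**Figure D3:**
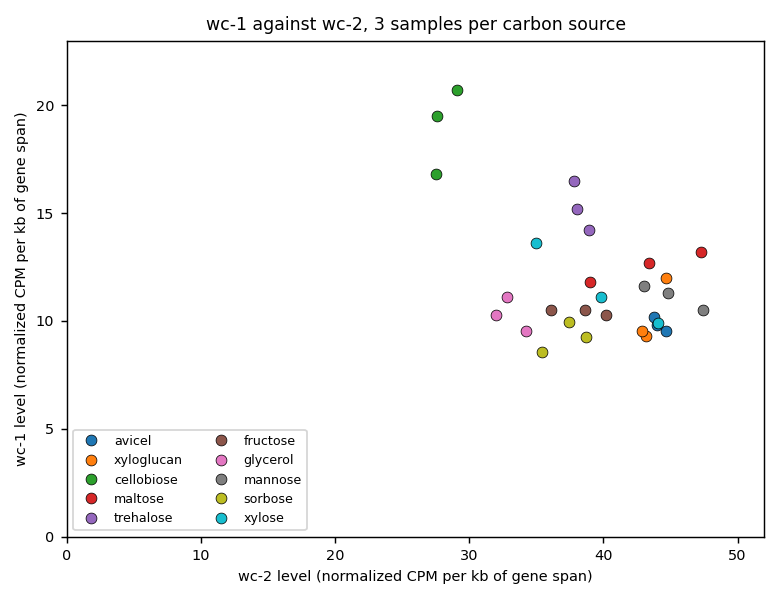
Level of *wc-1* (y axis) against level of *wc-2* (x axis), both in normalized CPM per kb of gene span, 1 point per sample, coloured by carbon source. The 3 cellobiose samples stand alone at the upper left, with ratios of 0.611 to 0.711.

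In the negative arm, *frq* was nearly flat and *frh* was not. The *frq* transcript had 331, 336 and 334 CPM on fructose, where it was higher than in every other sample (log2 fold change 0.25, SE 0.05, adjusted p = 5.4e-05, edgeR). It had 228, 223 and 230 CPM on sorbose, below every other sample (-0.37, SE 0.05, adjusted p = 1.2e-06), and 238, 263 and 250 CPM on mannose (-0.21, SE 0.05, adjusted p = 0.00052). In cultures on the remaining 7 sources it lay between 260 and 315 CPM. The replicates of *frq* were the tightest of the members, with a mean coefficient of variation within a source of 2.96%, so differences of this size could be told from the replicate spread. The mannose call was lost without mannose replicate 1 (-0.17, adjusted p = 0.013). The *frq* locus also gives an antisense transcript, and as the strand setting of the counting is not stated, reads of the 2 cannot be told apart here.

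The gene of the helicase FRH had 89, 118 and 93.1 CPM on trehalose, above every other sample, and was 2.83-fold higher there than on the other 9 sources (log2 fold change 1.50, SE 0.09, adjusted p = 3.2e-13, edgeR). Maltose came next with 72.3, 60.5 and 68.5 CPM (0.86, SE 0.09, adjusted p = 4.9e-08). The step between these sources was the only 1 of 63 steps between neighbours in the order of a member's levels that passed the test, with a mean of 100 CPM on trehalose and 67.1 CPM on maltose (log2 fold change 0.58, SE 0.13, adjusted p = 0.0022), where 4.81% of such steps passed over all genes. It did not pass when the 6 samples of this pair were fitted alone. Glycerol followed with 56, 45.3 and 46.7 CPM (0.37, SE 0.10, adjusted p = 0.0044), a call that was lost without glycerol replicate 1 (0.27, adjusted p = 0.087) or glycerol replicate 3 (0.41, adjusted p = 0.012).

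At the low end, *frh* had 21.6, 21.6 and 20.8 CPM on fructose (log2 fold change -0.97, SE 0.11, adjusted p = 1.4e-07, edgeR), 24.8, 21 and 24.9 CPM on cellobiose (-0.82, SE 0.11, adjusted p = 7.3e-07) and 26.7, 17.4 and 27.5 CPM on mannose (-0.79, SE 0.11, adjusted p = 1.2e-06). All samples on these 3 sources were below those on the other 7, of which the lowest had 31.2 CPM. The sources with the highest and the lowest *frq* level were thus not those of *frh*, and fructose was the highest for *frq* and the lowest for *frh*.

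The photoreceptor gene *vvd* was highest on mannose, with 3104, 2901 and 2967 CPM (log2 fold change 0.44, SE 0.10, adjusted p = 0.00033, edgeR), and on xyloglucan, with 2822, 2763 and 3273 CPM (0.42, SE 0.10, adjusted p = 0.00066). All of these samples lay above all samples on the other 8 sources, which ran between 1565 and 2605 CPM. The xyloglucan call was lost without xyloglucan replicate 3 (0.34, adjusted p = 0.018). Replicates of *vvd* were wider apart than those of *frq*, and the 3 xylose cultures alone, with 1565, 2536 and 1914 CPM, spanned most of the range of those 8 sources. Over the 10 source means *vvd* moved with *wc-2* (Pearson r 0.64, Spearman rho 0.73, and r 0.65 without cellobiose and glycerol), given here as a description of 1 of 21 member pairs. Within sources, the deviations of the same genes from their source means ran the other way (r -0.70 over 30 samples).

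For the repressor gene *csp-1*, as for every member but *frh*, 0 of 9 steps between neighbouring sources passed the test. Over all genes 4.81% of such steps did, so this count does not set *csp-1* apart. The gene ran in a graded order of sources that cut across the sugar classes. It had 127, 121 and 115 CPM on fructose (log2 fold change 0.73, SE 0.09, adjusted p = 3.2e-07, edgeR), 103, 124 and 105 CPM on cellobiose (0.58, SE 0.09, adjusted p = 4.6e-06), 95.3, 107 and 108 CPM on xylose (0.48, SE 0.09, adjusted p = 0.00035) and 90.9, 94.2 and 115 CPM on xyloglucan (0.43, SE 0.09, adjusted p = 0.00035). The xyloglucan call was lost without xyloglucan replicate 3 (0.31, adjusted p = 0.019). At the low end it had 41.7, 45.7 and 41.5 CPM on sorbose (-0.93, SE 0.10, adjusted p = 1.2e-07), 47.5, 44 and 38.3 CPM on avicel (-0.92, SE 0.10, adjusted p = 9.2e-08) and 55.2, 51.9 and 57.5 CPM on maltose (-0.54, SE 0.10, adjusted p = 0.0001). Sorbose and avicel samples were all below those on any other source.

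Between these higher and lower sources lay glycerol with 85.2, 79.9 and 85.2 CPM and trehalose with 71.1, 66.9 and 59.8 CPM, neither past the test. Mannose gave *csp-1* levels of 106, 65.8 and 101 CPM, the widest spread of the gene, so that replicate 2 fell in the range of trehalose and the other replicates in that of cellobiose and xylose.

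Since *csp-1* is known as glucose-responsive, the 3 disaccharides that are made of glucose alone were compared with the other 7 sources. Those 7 include avicel, which as cellulose is also made of glucose and on which *csp-1* averaged 43.3 CPM. The comparison is therefore not one of glucose with other sugars. Of the members, 3 of 7 passed, where 67.4% of all genes did, and none was over 2-fold (14.4% of all genes). The gene *wc-1* averaged 101 CPM on the glucose disaccharides and 67.1 CPM on the others (log2 fold change 0.57, SE 0.05, adjusted p = 4e-10, edgeR), and *frh* averaged 63.6 CPM against 35.5 CPM (0.66, SE 0.07, adjusted p = 2e-09). The gene *wc-2* averaged 132 CPM on the disaccharides and 145 CPM on the others (-0.15, SE 0.04, adjusted p = 0.00097). For *csp-1* the averages were 77.1 CPM on the disaccharides and 83.6 CPM on the others, which did not pass (-0.08, SE 0.06, adjusted p = 0.23).

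These averages join unlike values, because the disaccharides differed from each other. Between cellobiose and maltose, *csp-1* averaged 111 CPM on cellobiose and 54.9 CPM on maltose, a 2.01-fold difference (log2 fold change 1.01, SE 0.13, adjusted p = 4.2e-07, edgeR), and *frh* averaged 23.5 CPM on cellobiose and 67.1 CPM on maltose (-1.51, SE 0.14, adjusted p = 2.7e-09). In the same pair *wc-1* was higher (0.60, adjusted p = 3.9e-05), and *wc-2* (-0.62, adjusted p = 2.9e-07) and NCU04785 (-1.28, adjusted p = 0.00065) were lower on cellobiose. That is 5 of 7 members past the adjusted p, where 51.3% of all genes passed. Between cellobiose and trehalose, 4 of 7 members and 43% of all genes passed, and *frh* averaged 23.5 CPM on cellobiose and 100 CPM on trehalose (-2.09, SE 0.14, adjusted p = 1.6e-11). Between maltose and trehalose, *frh* alone among the members passed (-0.58, SE 0.13, adjusted p = 0.0022), where 19.6% of all genes did, and *csp-1* averaged 54.9 CPM on maltose and 65.9 CPM on trehalose (-0.27, SE 0.13, adjusted p = 0.12).

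The polymers were compared with the 8 soluble sources in the same way. Of the members 5 of 7 passed, where 54.1% of all genes did, and none was over 2-fold (8.5% of all genes). The gene *wc-2* averaged 158 CPM on the polymers and 137 CPM on the soluble sources (log2 fold change 0.23, SE 0.04, adjusted p = 6.1e-05, edgeR), and *wc-1* averaged 64.9 CPM against 80.3 CPM (-0.27, SE 0.06, adjusted p = 0.00049). The *frq* value was 0.11 (SE 0.03, adjusted p = 0.0075). It stayed between 0.10 and 0.12 in 30 fits that each left out 1 library, of which 16 lost the call, with adjusted p up to 0.025.

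The polymer values of *csp-1* and NCU04785 hid further differences. The gene *csp-1* averaged 71.7 CPM on the polymers and 84.1 CPM on the soluble sources (-0.28, SE 0.07, adjusted p = 0.0021, edgeR), a call lost without avicel replicate 3 (-0.24, adjusted p = 0.013) or xyloglucan replicate 1 (-0.24, adjusted p = 0.012). Yet *csp-1* averaged 100 CPM on xyloglucan and 43.3 CPM on avicel (log2 fold change 1.21, SE 0.13, adjusted p = 5.8e-08), and no other member passed between these polymers, where 34.9% of all genes did. The gene NCU04785 averaged 4.48 CPM on the polymers and 7.28 CPM on the soluble sources (-0.61, SE 0.17, adjusted p = 0.0035). Its call was lost without avicel replicate 2 (-0.59, adjusted p = 0.011), xyloglucan replicate 2 (-0.58, adjusted p = 0.012) or xyloglucan replicate 3 (-0.56, adjusted p = 0.015), and it was near 0 within replicate 1 (-0.01) and -0.86 within replicates 2 and 3.

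The monosaccharides fructose and sorbose stood at opposite ends for *csp-1* and *frq*. Between them *csp-1* averaged 43 CPM on sorbose and 121 CPM on fructose (log2 fold change -1.50, SE 0.13, adjusted p = 2.4e-09, edgeR), and *frq* averaged 227 CPM on sorbose and 334 CPM on fructose (-0.56, SE 0.06, adjusted p = 9.2e-08). The gene *frh* was higher on sorbose (0.79, SE 0.14, adjusted p = 4.4e-05), as was NCU04785 (1.05, SE 0.28, adjusted p = 0.0029). In this pair 4 of 7 members and 39.7% of all genes passed.

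The level of NCU04785 moved with a property of the libraries. On sorbose it had 8.43, 15.5 and 16.5 CPM, 2.34-fold above the other 9 sources (log2 fold change 1.23, SE 0.19, adjusted p = 1.3e-05, edgeR). In the same libraries 3.02%, 8.61% and 8.79% of reads fell outside genes, and replicates 2 and 3 of sorbose had the largest shares of the series. In 7 of the 10 sources replicate 1 had the smallest share of reads outside genes, 2.43% to 3.02% against 3.86% to 8.79% in replicates 2 and 3. In the same 7 sources NCU04785 was lowest in replicate 1, with replicates 2 and 3 averaging 1.4 to 1.9 times its level. On avicel, xyloglucan and cellobiose, whose 3 libraries had similar shares, it was lowest in replicate 1 in none.

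When that share was added to the fit as a covariate, the sorbose value of NCU04785 was 0.54 (adjusted p = 0.003, edgeR), no longer over 2-fold. The covariate also brought NCU04785 past the test on maltose (0.54, adjusted p = 0.00027, edgeR) and on mannose (-0.44, adjusted p = 0.0039). Without it these values were 0.59 and -0.33 and did not pass. Within replicate 1 alone the sorbose value was 0.82, and within replicates 2 and 3 it was 1.39. Without sorbose replicates 2 and 3, a choice made after seeing the data, it was 0.55 (adjusted p = 0.24). That fit leaves 1 sorbose sample, which is assumed to vary like the samples of the other sources. The lower values on cellobiose, with 4.41, 2.98 and 3.74 CPM (-0.83, SE 0.24, adjusted p = 0.0037), and on xyloglucan, with 4.79, 3.48 and 3.23 CPM (-0.77, SE 0.24, adjusted p = 0.008), were -0.21 and -0.08 within replicate 1. The cellobiose call was lost without cellobiose replicate 2 (-0.70, adjusted p = 0.035) or cellobiose replicate 3 (-0.84, adjusted p = 0.019), and the xyloglucan call in 14 of 30 fits that left out 1 library. The part of the reads outside genes in these results was not tested further. Of the other members, 3 calls were lost without the 2 sorbose libraries, each with a value close to that with them: *wc-1* on sorbose (-0.38, adjusted p = 0.071), *wc-2* on xyloglucan (0.19, adjusted p = 0.012) and *frq* on the polymers (0.11, adjusted p = 0.017).

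**Figure D4:**
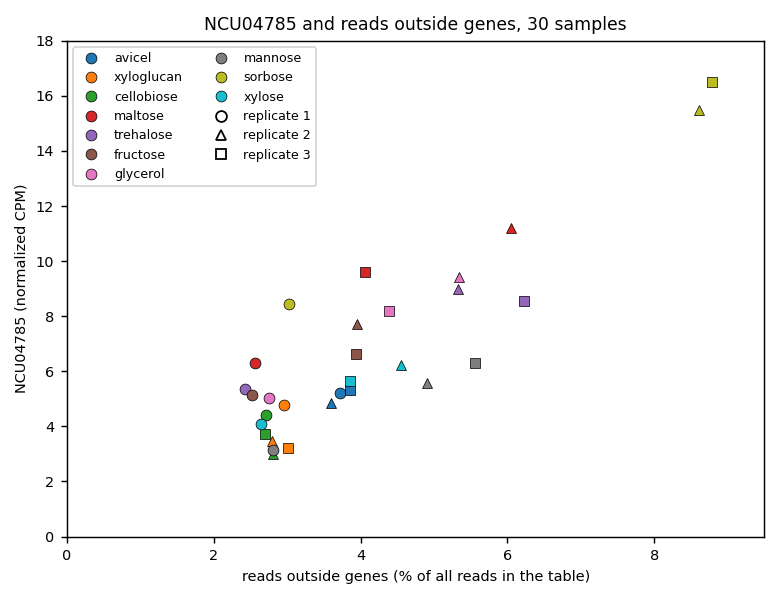
NCU04785 level (y axis, normalized CPM) against the share of reads outside genes (x axis, percent of all reads in the table), 1 point per sample, coloured by carbon source and shaped by replicate. Replicates 2 and 3 of sorbose stand at the upper right, with 15.5 and 16.5 CPM at 8.61% and 8.79%.

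The gene of FWD-1, NCU04540, was among the steadier genes, with 89.4 to 162 CPM over all samples and a ratio of highest to lowest source mean of 1.52. On trehalose it had 102, 89.4 and 96.2 CPM (log2 fold change -0.42, SE 0.10, adjusted p = 0.00062, edgeR), a call lost without trehalose replicate 2 (-0.37, adjusted p = 0.011). On no other single source was *fwd-1* past the test. Its sorbose value of 0.25 passed without TMM factors (0.33, adjusted p = 0.0021, edgeR) and with the reads outside genes as covariate (0.42, adjusted p = 0.0024). On the glucose disaccharides together it was lower (-0.26, SE 0.06, adjusted p = 0.00079, edgeR), as were 34.3% of all genes. That call was lost in 0 of 30 fits that each left out 1 library. Its annotated span overlaps that of NCU04541 by 224 bases.

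The other genes of the clock varied little. A list of kinases, phosphatases, turnover factors and other regulators of the clock held 20 symbols, of which 17 could be matched, *fwd-1* included. Their median ratio of highest to lowest source mean was 1.52, and 1 of the 17 had a ratio over 2, *prd-4*, the checkpoint kinase gene, with a mean of 243 CPM on avicel and 107 CPM on xyloglucan. None of the 17 was past both thresholds on any source against the other 9, on the glucose disaccharides or on the polymers, where 14.4% and 8.5% of all genes were in the last 2. On single sources that share was 10.6% on avicel, 10.5% on xyloglucan, 17.7% on cellobiose, 8.23% on maltose, 18% on trehalose, 7.53% on fructose, 5.09% on glycerol, 13.9% on mannose, 7.15% on sorbose and 3.26% on xylose. By adjusted p alone, the most calls were on avicel, where 3 rose and 6 fell, as 23.2% and 23.4% of all genes did. Among the genes of this list were *rgb-1*, a phosphatase subunit gene (ratio 1.15), *prd-3*, the catalytic subunit of casein kinase 2 (1.23), and *ck-1a*, casein kinase 1 (1.5).

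**Figure D5:**
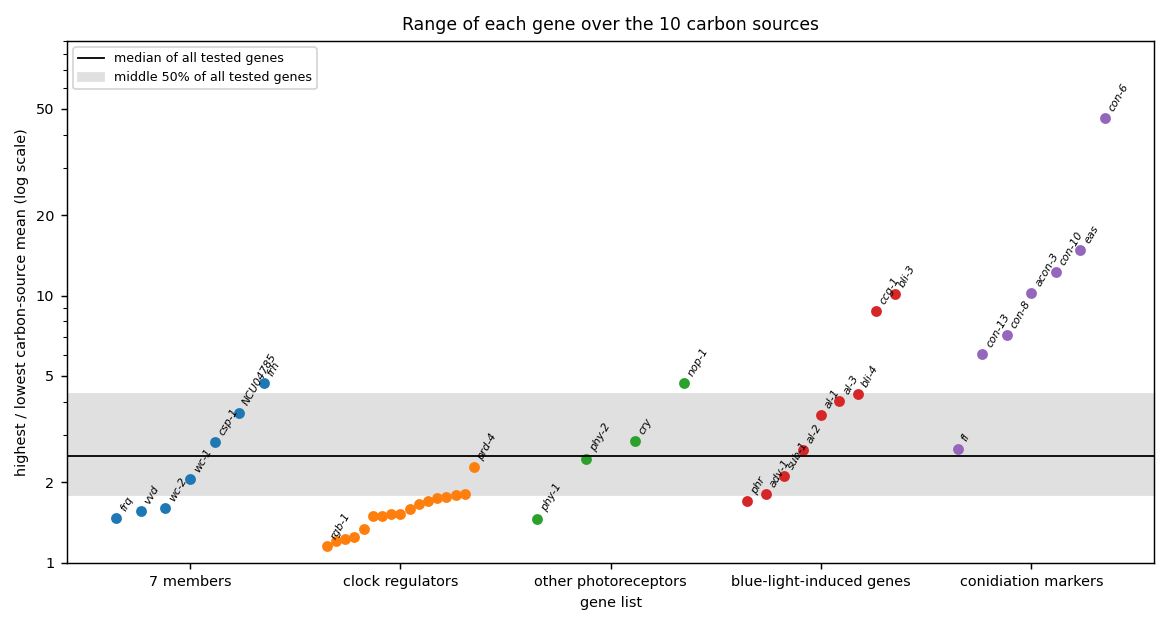
Ratio of the highest to the lowest carbon-source mean (y axis, log scale) for each gene of 5 lists (x axis). The black line is the median of all tested genes (2.51) and the grey band the middle 50% (1.79 to 4.28); the clock regulators, of which the lowest and highest are named, lie mostly under the band, and the conidiation markers other than fl lie above it.

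The genes downstream of light and of development varied more. Of the 9 blue-light-induced genes the median ratio was 3.57, and of the 4 other photoreceptors 2.64. On mannose, 3 of the 9 light-induced genes were over 2-fold higher: *ccg-1* averaged 25905 CPM on mannose and 9379 CPM on the other sources (log2 fold change 1.70), *bli-3* 2085 against 894 CPM (1.54) and *al-3*, of carotenoid synthesis, 533 against 288 CPM (1.04). The same genes were over 2-fold higher on fructose, with *bli-3* at 2240 against 877 CPM (1.66), *ccg-1* at 17448 against 10319 CPM (1.06) and *al-3* at 541 against 287 CPM (1.06). On trehalose they were over 2-fold lower, with *bli-3* at 223 against 1101 CPM (-2.04), *ccg-1* at 2967 against 11928 CPM (-1.78) and *al-3* at 134 against 333 CPM (-1.17). The list did not move as one: *sub-1*, a transcription factor gene, passed in the other direction on each of these sources, at -0.51 on mannose, -0.55 on fructose and 0.65 on trehalose, and the median log2 fold change of the 9 genes on mannose was -0.03. On cellobiose 6 of the 9 were lower by adjusted p, as were 30% of all genes, and 3 of the 6 were over 2-fold lower. The opsin gene *nop-1* averaged 262 CPM on mannose and 128 CPM on the other sources (1.17), and 55.7 CPM on cellobiose and 151 CPM on the other sources (-1.31). It was also over 2-fold higher on fructose (1.09) and over 2-fold lower on trehalose (-1.15). All of these had an adjusted p under 0.01 (edgeR). Counted in either direction, 13.9%, 7.53%, 18% and 17.7% of all genes were past both thresholds on mannose, fructose, trehalose and cellobiose.

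Conidia, the asexual spores, are a cell type that a mycelial culture in the light could hold, and the genes listed as their markers moved most of the lists. Whether these cultures held conidia was not tested, and levels of these genes in bulk RNA do not show it. The 7 markers had a median ratio of 10.2 between highest and lowest source. On cellobiose 7 of 7 were lower (30% of all genes), 6 of them over 2-fold, among them *con-6* with 63.6 CPM on cellobiose and 1456 CPM on the other sources (log2 fold change -4.21), the hydrophobin gene *eas* with 1191 against 10732 CPM (-3.08), *con-10* with 19 against 112 CPM (-2.12) and *acon-3* with 3.12 against 15 CPM (-2.07). The summed level of the 7 markers was 1158, 1659 and 1579 CPM on cellobiose, under that of every other sample, the next lowest being 4941 CPM on sorbose. By mean it was highest on avicel, with 16568, 28240 and 18940 CPM, of which *eas* alone averaged 17583 CPM. These samples overlapped those of other sources, such as maltose replicate 2 with 23696 CPM. Of the other markers, *acon-3* was also highest on avicel, *con-6*, *con-8* and *con-10* on mannose, and *con-13* and *fl* on fructose. The high *wc-1* and low *wc-2* levels of cellobiose therefore coincided with the lowest conidiation markers, whose part in them was not tested. The glucose disaccharides together had 7 of 7 markers lower (34.3% of all genes), the polymers 6 of 7 higher (27.1%) and mannose 6 of 7 higher (27.2%). The disaccharides differed here too. On maltose alone 2 markers passed higher and 1 lower, where 38.2% of all genes passed in either direction. On trehalose 3 of 7 passed lower and 0 higher (56.9% in either direction). The mean summed level was 15762 CPM on maltose, 7744 CPM on trehalose and 1465 CPM on cellobiose. No marker was at 0 in any source mean, the lowest being *con-13* with 0.859 CPM on cellobiose.

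The pattern of each member over the 10 source means was last compared with those of the tested genes with a mean of at least 10 CPM, by Pearson r of log2 levels and with no test. For *frh*, the most alike were NCU07712 (0.985), NCU04503 (0.98) and NCU04571 (0.98). For *wc-1* they were NCU04429 (0.973), *bni1* (0.957) and *rib-4* (0.957), and for *csp-1* NCU08330 (0.971), NCU07082 (0.946) and NCU00281 (0.946). For *wc-2* they were NCU03298 (0.959), NCU06627 (0.951) and NCU01453 (0.943), for NCU04785 NCU08505 (0.938), NCU11249 (0.933) and NCU02014 (0.93), and for *vvd* *cys-16* (0.917), *aga-1* (0.904) and NCU06774 (0.892). The lowest values were those of *frq*, with NCU00321 (0.884), NCU04274 (0.873) and *met-10* (0.872). No member was among the 3 genes most like another member.

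By RefSeq, assembly NC12, *frq* lies on chromosome VII at 3131640-3136464, *wc-1* on chromosome VII at 2767393-2773846, *wc-2* on chromosome I at 6815517-6819124 and *csp-1* on chromosome I at 3284468-3286740. On chromosome VI are *vvd* at 2268533-2271812 and NCU04785 at 809549-812416, and on chromosome II is *frh* at 964247-968587. The span of no member overlaps another gene of that annotation.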

How the data were processed

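The data were RNA-seq counts from 30 WT cultures, 3 for each of 10 carbon sources. The authors passed reads through CASAVA 1.8, kept reads with all bases above quality 22 (FASTX-Toolkit), aligned them by TopHat 2.0.4 against transcripts predicted for OR74A, genome version 12, and deposited raw counts per gene from HTSeq 0.6.0, without pooling replicates. Reads outside genes (2.43% to 8.79% of the table), ambiguous reads (1.44% to 2.14%) and reads at several places (0.217% to 6.05%) are separate totals and entered neither library sizes nor tests. The strand setting is not given in the sources used here. Groups and replicate numbers came from the sample titles.

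Tests used edgeR 4.0.16 under R 4.3.3 (filterByExpr, TMM factors, 1 mean per carbon source, quasi-likelihood tests, 30 samples in 1 fit), with Benjamini-Hochberg adjustment over all 8501 tested genes. "Passed" means an adjusted p under 0.01, and the study's thresholds add a fold change over 2. CPM are counts scaled to the TMM-adjusted library size. Comparisons of a source with others weight the sources equally on the log2 scale, and comparisons within the series share samples. Names, positions and lengths came from the RefSeq table of assembly NC12, in which 9757 of 9758 identifiers were found. Symbols *prd-1*, *prd-2*, *pph-4* and *orp-1* of the lists could not be matched. The named genes are all members in every comparison and the 3 genes most like each member. Of the listed pathway genes, only some of those past both thresholds are named (at most 4 per list and comparison), with extremes and other genes of a list. The members and lists were chosen with earlier results of these data known. Alternatives were library sizes without TMM, no filter, DESeq2 1.42.0, a replicate block, the reads outside genes as covariate, pairs of sources alone, no minimum fold, and each replicate left out. The scripts were tested on simulated data. Replicate pairs of 1 source differed by more than counting noise (chi-square per degree of freedom 5.36 to 224 in 30 pairs), so each library counted as 1 replicate.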

Additional observations from a re-analysis of the deposited data

How the results depend on the processing

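No value past the test changed sign under any alternative. Without TMM factors the cellobiose comparison shifted by -0.18 and the trehalose comparison by -0.10 (log2) for all genes, and 8 values that had not passed changed sign, among them *frq* on cellobiose (0.09 to -0.09), *frq* on the glucose disaccharides (0.06 to -0.03), *fwd-1* on cellobiose (0.03 to -0.15) and NCU04785 on the disaccharides (0.04 to -0.06). The count of 2 member tests past both thresholds was 1 with the reads outside genes entered as covariate, 1 without sorbose replicates 2 and 3 (added after seeing the data), 3 without TMM factors, where NCU04785 on cellobiose reached -1.01 (adjusted p = 0.00097, edgeR), and 30 with no minimum fold. With no minimum fold the glucose disaccharides had 3 calls and the polymers 5, against 0. The 1 step between neighbouring sources became 3 without TMM factors, 3 with the covariate, 4 with DESeq2 and 0 when only the 6 samples of a pair were fitted. When each replicate was left out in turn, the neighbour steps ran between 1 and 4, the polymer calls by adjusted p between 3 and 6, and the 30 calls by adjusted p between 27 and 33.

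The labels do not say that a replicate number marks a shared batch, and samples were not paired by it. Same-numbered samples of different sources had a mean correlation of deviations of 0.074 over 135 pairs (-0.33 to 0.51, with 52 over 0.1), and 11 of 30 samples correlated best with their own number, although replicate 1 had the fewest reads outside genes in 7 of 10 sources. With a replicate block, 32 calls by adjusted p were made in place of 30, 2 stayed past both thresholds, the polymers had 6 in place of 5, the glucose disaccharides 3, and neighbour steps were 2 in place of 1. The block lost none of the calls of single genes and added *wc-2* on maltose (0.18, adjusted p = 0.0057), NCU04785 on maltose (0.57, adjusted p = 0.0064) and *vvd* on the polymers (0.23, adjusted p = 0.0054) by edgeR. The reads outside genes as covariate added NCU04785 and *wc-2* on maltose (0.54 and 0.18), NCU04785 on mannose (-0.44) and *fwd-1* on sorbose (0.42). It also added *vvd* on sorbose (-0.41) and on the polymers (0.27), and lost *wc-2* on xyloglucan and *frq* on the polymers. DESeq2 lost none. It added *frq* on avicel (0.15), cellobiose (0.12) and the glucose disaccharides (0.07), *wc-2* on maltose (0.18) and *vvd* on the polymers (0.23).

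Depth limits NCU04785 most, with 41 to 235 reads per library.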

Other observations

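Within sources, over the 30 samples, the deviations of the share of reads outside genes and of a gene's level correlated differently among members, given as a description: r was 0.87 for NCU04785, 0.46 for *vvd*, -0.57 for *wc-2* and -0.53 for *fwd-1*. The *wc-2* transcript was lowest in replicate 1 in 1 of 10 sources and *vvd* in 7 of 10.

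Of the photoreceptor genes outside the members, the cryptochrome gene *cry* ran between a mean of 544 CPM on fructose and 192 CPM on avicel, and the phytochrome gene *phy-1* between 31 CPM on cellobiose and 21.2 CPM on mannose.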
